A study of Mus musculus with 12 samples.

Results

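The proteasome genes described here are the mouse genes with a symbol made of Psma, Psmb, Psmc, Psmd or Psme and a number. The gene-name table holds 43 such symbols, and 41 of them were listed in at least 1 of the 6 RNA libraries. The 40 genes that were listed in all 6 libraries are the members, out of 9237 genes listed in all 6 libraries and 13318 listed in any. All 40 members had a mean of at least 1 FPKM (read fragments scaled to transcript length and library size) and entered the test with 9022 genes. They comprise 13 core subunits (7 alpha subunits, 4 structural beta subunits and the constitutive catalytic subunits Psmb6 and Psmb7), 16 regulatory subunits (6 ATPases and 10 non-ATPases), 5 immunoproteasome subunits (Psmb8, Psmb9, Psmb10, Psme1 and Psme2) and 6 others (Psma8, Psmd5, Psmd9, Psmd10, Psme3 and Psme4). Psmb11, the catalytic subunit of the thymus form, and Psmd1, a large scaffold of the regulatory particle, had no row under their own gene IDs. Psmb5, the constitutive catalytic subunit with chymotrypsin-like activity, was listed only in untreated library 2, at 0.451 FPKM and on the strand opposite to RefSeq's.

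The proteasome is the barrel-shaped protease that degrades proteins tagged with ubiquitin. Its core is a stack of rings of alpha and beta subunits, in which Psmb5, Psmb6 and Psmb7 carry the active sites, and a regulatory particle of ATPases and non-ATPases recognises, unfolds and feeds in the substrate. In cells exposed to interferon, and constitutively in lymphoid cells, Psmb8, Psmb9 and Psmb10 replace Psmb5, Psmb6 and Psmb7 to form the immunoproteasome, and the activator PA28, made of Psme1 and Psme2, caps the core; both favour peptides for MHC class I. When the proteasome is overloaded, the transcription factor NRF1 (gene Nfe2l1) escapes degradation and raises transcription of subunit genes through antioxidant response elements. In the ovary, proteolysis by the proteasome is known to take part in cumulus expansion and meiotic resumption.

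Cumulus cells, the somatic cells around the oocyte, came from Kunming mice; the labels also call them granulosa cells from antral follicles and give no age. In 3 libraries the cells had follicle-stimulating hormone (FSH) and fetal bovine serum (FBS) together for 18 hours, and the other 3 libraries were labelled untreated. The series' design text describes complexes cultured in a medium that supports expansion and complexes without their oocyte cultured in a medium that triggers apoptosis, but the labels do not say which of these an untreated library came from, or how long it was in culture. FSH, serum, culture and the oocyte's presence therefore cannot be told apart as sources of a difference, and no agent or allele is given as shared by both groups.

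Depth was unknown, because the files give FPKM and no counts. Libraries 1 and 2 of each group were nearly the same measurement, with a median difference of 1.066-fold after FSH and FBS and 1.077-fold in untreated cells over 4715 genes with a mean of at least 10 FPKM, against 1.316 to 1.439-fold for the other pairs within a group. They were averaged, so n is 2 samples per group. FSH and FBS library 3 stood apart from the others, with gene values that summed to 390966 FPKM against 264904 to 274530 in the other 5. Of the marker lists, the 12 cumulus and granulosa genes summed to 416 to 570 FPKM with FSH and FBS against 484 to 612 in untreated cells. Of these 12, 11 were listed in at least 1 library and Foxl2 in none. Wt1, the only gene called of the 9 tested, was lower (0.419, 0.145 and 0.00628 FPKM against 8.04, 9.04 and 3.73, limma adjusted p 0.029). Of the 9, 4 had a log2 fold change of FSH and FBS over untreated above 0 (Amh, Inhba, Nr5a2 and Hsd17b1) and the rest below. The sum over 16 oocyte markers was 0.260, 0.157 and 20.0 FPKM in FSH and FBS libraries 1, 2 and 3 and 21.3 to 28.3 in the untreated libraries, and only Gdf9 among them was listed in all 6; Bmp15, Zp1, Zp2, Figla and Mos were listed in none.

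Most members had log2 fold changes above 0, and none passed the test by itself. Together they made up 0.960, 0.988 and 1.22% of the summed gene FPKM in FSH and FBS libraries 1, 2 and 3, and 0.825, 0.843 and 0.911% in untreated libraries 1, 2 and 3, so the groups did not overlap. In bulk RNA, fewer cells of a type and less RNA per cell cannot be told apart. The log2 fold change of FSH and FBS over untreated, on the log2(FPKM + 1) scale, was above 0 in 37 of 40 members, where 67.25% of all genes were, and its median was 0.57 against 0.24 for all 9022 genes. It was 0.56 for the core, 0.63 for the regulatory particle and 0.41 for the immunoproteasome subunits. No member was called higher (1.68% of all genes were) or lower (0.687%) by limma at an adjusted p under 0.05. At an unadjusted limma p under 0.05, 3 members were higher (Psmd3, Psmd7 and Psme2) and 0 lower, against 12.15% and 4.312% of all genes.

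**Figure D1:**
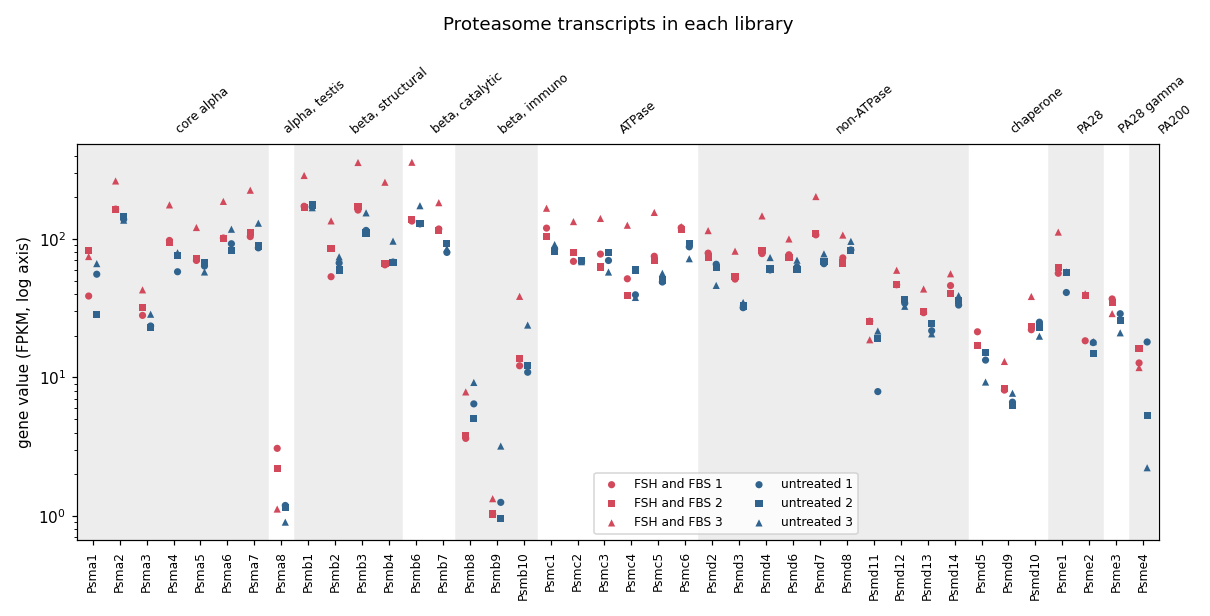
Gene value in FPKM (log axis) of the 40 members in each library, red for FSH and FBS and blue for untreated, with a marker shape for each library number. FSH and FBS library 3 (red triangles) is the highest of the 6 in 32 of 40 members, and Psma8 and Psmb9 have the lowest means over the libraries.

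In 20 of 40 members all 3 FSH and FBS libraries lay above all 3 untreated libraries, where 29.4% of all genes did so, and in 0 members they lay below, where 9.54% did. By class these were 5 of 13 core, 11 of 16 regulatory and 1 of 5 immunoproteasome subunits. The count depended on scaling: it was 13 with the libraries set to equal sums (17.2% of all genes), where 1 member lay below (14.4%), and 8 with scaling by the median of ratios (18.6%), a share of the members near that of all genes. Setting the libraries to equal sums moved the median of all genes to -0.02 and that of the members to 0.28.

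FSH and FBS library 3 carried much of the distance. Without it, the members' median was 0.22 beside 0.26 for all genes, and 18 of 40 members lay above the median of all genes in place of 37. Leaving out library 3 of both groups gave 0.30 beside 0.14, with 32 members above 0 and 28 above the median of all genes. Within library numbers, the log2 ratio of FPKM with no pseudocount was above 0 in 32 members for libraries 1 and 2 (60.91% of all genes) and in 37 for libraries 3 (69.44%), and in 31 for both (51.1%). Its median over the members was 0.31 in libraries 1 and 2 and 0.91 in libraries 3, beside 0.16 and 0.40 over all genes. FSH and FBS library 3 exceeded the mean of libraries 1 and 2 in all 13 core subunits, in 15 of 16 regulatory subunits, in 5 of 5 immunoproteasome subunits and in 2 of the 6 others (48.38% of all genes), with a median of 1.60-fold over the members and 0.979-fold over all genes. In untreated cells, library 3 exceeded the mean of libraries 1 and 2 in 24 of 40 members (34.01% of all genes). The median untreated ratio was 1.13-fold over the members and 0.848-fold over all genes.

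**Figure D2:**
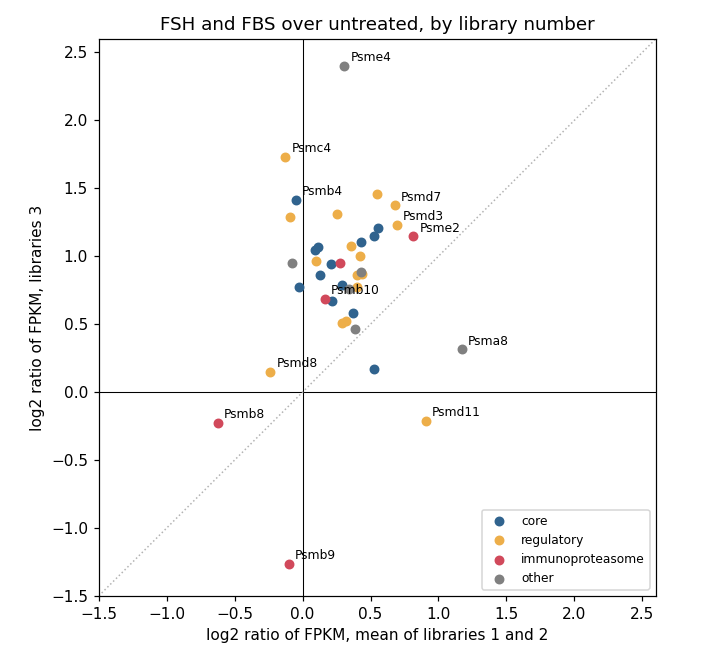
Log2 ratio of FPKM, FSH and FBS over untreated, for the mean of libraries 1 and 2 (x axis) and for libraries 3 (y axis), 1 point per member, coloured by class; the dotted line marks equal ratios. The ratio was larger in libraries 3 for 36 of 40 members, and Psmb8 and Psmb9 lie below 0 on both axes.

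The alpha subunits, which form the outer rings and the gate of the core, all had log2 fold changes between 0.34 and 0.83. Psma4 had the largest, at 97.7, 94.8 and 176 FPKM with FSH and FBS against 58.0, 76.0 and 79.7 untreated, with no overlap, a log2 fold change of 0.83 (SE 0.43) and a limma adjusted p of 0.38. Psma2 stood at 165, 164 and 263 FPKM against 139, 146 and 137, and Psma5 at 70.0, 72.6 and 121 against 63.8, 68.0 and 57.8. These too did not overlap, although libraries 1 and 2 alone differed little from the untreated ones. Psma3, Psma6 and Psma7 overlapped between the groups and had log2 fold changes of 0.46, 0.44 and 0.54. Psma1 was the smallest, at 0.34 (SE 0.39): its values of 38.8, 82.4 and 74.7 against 55.7, 28.5 and 66.4 FPKM differed about 2-fold between libraries 1 and 2 of a group, further than the means of the groups.

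Among the structural beta subunits, which form the inner rings without active sites, Psmb3 had the largest log2 fold change. It stood at 162, 171 and 357 FPKM with FSH and FBS against 115, 110 and 155 untreated, with no overlap and a log2 fold change of 0.88 (SE 0.49, limma adjusted p 0.42). Psmb4 stood at 65.1, 66.4 and 257 FPKM against 68.2, 68.1 and 96.5, with FSH and FBS library 3 at 3.91-fold the mean of libraries 1 and 2, the highest such ratio of the 40 members. Its log2 fold change was 0.68 with all libraries and -0.30 without FSH and FBS library 3. Psmb1 stood at 172, 169 and 288 FPKM against 171, 176 and 168, so that only FSH and FBS library 3 lay above the rest, and its log2 fold change without that library was -0.00072. Psmb2 overlapped between the groups, with 0.49 (SE 0.43).

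The constitutive catalytic subunits Psmb6 (caspase-like site) and Psmb7 (trypsin-like site) differed in how far the groups lay apart. Psmb7 stood at 118, 115 and 183 FPKM against 80.0, 93.0 and 85.3, without overlap, at a log2 fold change of 0.76 (SE 0.40, limma adjusted p 0.39). Psmb6 stood at 135, 139 and 358 FPKM against 129, 129 and 174, and its log2 fold change of 0.56 (SE 0.53) became -0.13 without FSH and FBS library 3. Over all members, replicate spread set wide bounds: the 95% interval of Psmb6 ran from -0.67 to 1.80 on the log2 scale.

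**Figure D3:**
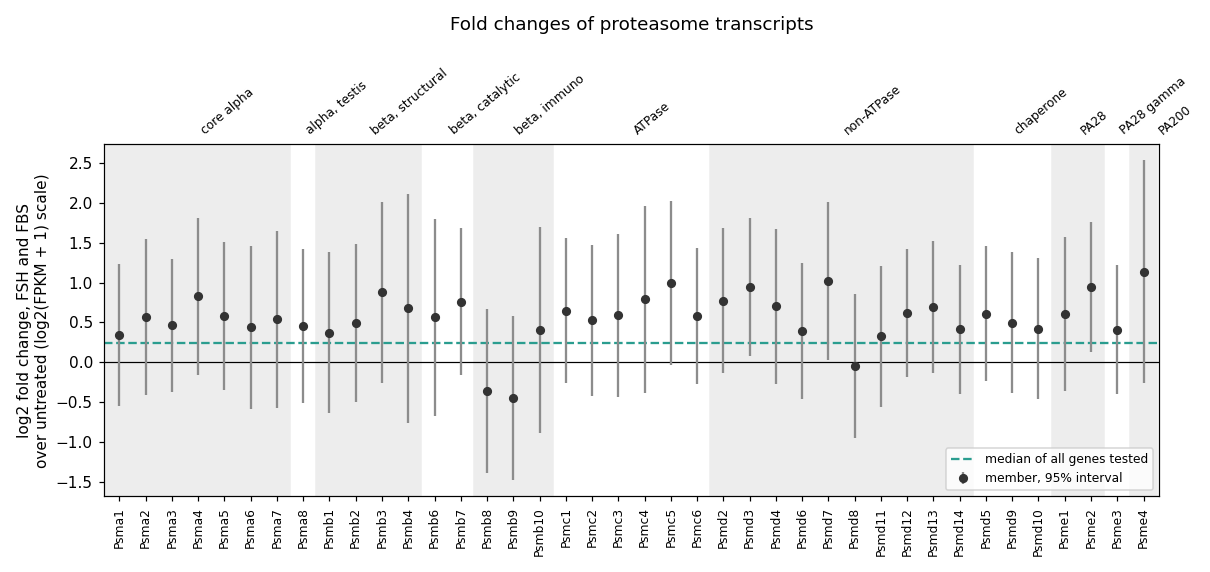
Log2 fold change of each member (points) with its 95% limma interval (bars), grouped by class; the dashed line is the median of all 9022 genes and the solid line 0. Psmd8, Psmb8 and Psmb9 are the members below 0, and the intervals of Psmd3, Psmd7 and Psme2 do not reach 0.

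In the regulatory particle 15 of 16 subunits had a log2 fold change above 0. Among the non-ATPases, Psmd7, the partner of the deubiquitinase Psmd14 in the lid, stood at 107, 109 and 203 FPKM with FSH and FBS against 66.3, 68.7 and 78.2 untreated. The groups did not overlap, libraries 1 and 2 included, and the log2 fold change was 1.02 (SE 0.43, 95% interval 0.025 to 2.01, limma adjusted p 0.29). Psmd3, a lid scaffold, stood at 51.4, 53.5 and 81.7 FPKM against 31.9, 32.9 and 34.8. Its log2 fold change was 0.94 (SE 0.37, limma adjusted p 0.27) and 0.63 without FSH and FBS library 3. With the 6 libraries as separate replicates Psmd3 was the only member called, at a limma adjusted p of 0.044 in a fit that called 10.8% of all genes higher; over its 18 alternatives the adjusted p ran from 0.030 to 0.69.

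Psmd2, the base scaffold, stood at 79.1, 74.1 and 115 FPKM against 65.7, 62.5 and 46.2, and Psmd13 at 29.4, 29.8 and 43.5 against 21.8, 24.5 and 20.7. Psmd12 stood at 46.7, 46.9 and 59.5 FPKM against 34.4, 36.5 and 32.7, and the ubiquitin receptor Psmd4 at 78.5, 83.0 and 147 against 59.8, 60.8 and 73.5. All of these were without overlap between the groups, as were Psmd6 and Psmd14, with log2 fold changes between 0.39 and 0.77 and limma adjusted p values between 0.38 and 0.64. Psmd8 was the exception, at 73.1, 67.2 and 107 FPKM against 83.4, 82.1 and 96.2 and a log2 fold change of -0.04 (SE 0.39). Its 2 lowest libraries were both from the FSH and FBS group. Psmd11 was listed by its first exon only, at 25.5, 25.2 and 18.7 FPKM against 7.91, 19.2 and 21.7, and untreated libraries 1 and 2 differed more than 2-fold.

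The 6 ATPases, which form the ring that unfolds substrates, had log2 fold changes between 0.52 and 0.99. Psmc5 had the largest, at 75.1, 70.2 and 156 FPKM with FSH and FBS against 48.9, 50.5 and 56.6 untreated, with no overlap (SE 0.45, limma adjusted p 0.32). Psmc6 had the lowest SD of the 6 over the FSH and FBS samples, at 121, 117 and 123 FPKM against 87.8, 92.4 and 72.1, a log2 fold change of 0.58 that was 0.56 without FSH and FBS library 3. Psmc1 did not overlap either, at 120, 105 and 167 FPKM against 84.8, 81.3 and 91.2. Psmc2, Psmc3 and Psmc4 overlapped. Psmc4 stood at 51.6, 39.2 and 126 FPKM against 39.6, 59.7 and 37.8, and its log2 fold change was 0.79 (SE 0.51) with all libraries and 0.07 without FSH and FBS library 3.

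The chaperones that assemble the regulatory particle, Psmd5, Psmd9 and Psmd10, had log2 fold changes of 0.61, 0.50 and 0.42. Psmd5 stood at 21.4, 17.0 and 17.1 FPKM against 13.4, 15.1 and 9.27, and Psmd9 at 8.11, 8.30 and 13.1 against 6.63, 6.30 and 7.69, both without overlap. Psmd10 overlapped, at 22.1, 23.4 and 38.5 FPKM against 25.1, 23.1 and 19.9. Psma8, an alpha subunit of the testis form, was near the lower bound of the test at 3.08, 2.20 and 1.12 FPKM against 1.19, 1.16 and 0.902.

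The immunoproteasome subunits did not share a direction. Psmb8, which takes the place of Psmb5, stood at 3.63, 3.83 and 7.86 FPKM with FSH and FBS against 6.45, 5.04 and 9.21 untreated, a log2 fold change of -0.36 (SE 0.44, 95% interval -1.38 to 0.67, limma adjusted p 0.73). The value moved to -0.06 when untreated library 3 was dropped and to -0.81 when FSH and FBS library 3 was. Within each library number the untreated value was the higher one, though the groups overlapped. Psmb9, which takes the place of Psmb6, was close to the minimum of 1 FPKM set for the test, at 1.03, 1.03 and 1.33 FPKM against 1.25, 0.958 and 3.20, and its log2 fold change of -0.45 (SE 0.45, limma adjusted p 0.66) became 0.05 without untreated library 3. Psmb10, which takes the place of Psmb7, stood at 12.2, 13.7 and 38.5 FPKM against 10.9, 12.2 and 23.9. Its log2 fold change was 0.41 (SE 0.56) with all libraries and -0.34 without FSH and FBS library 3.

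On the FPKM scale, which is per length, the inducible catalytic subunits were the lowest of the core with Psma8. Psmb9 over Psmb6 was 0.763, 0.744 and 0.372% after FSH and FBS and 0.975, 0.744 and 1.84% untreated. Psmb10 over Psmb7 was 10.3, 11.8 and 21.1% against 13.6, 13.1 and 28.0%. A ratio within a library does not move with its scaling. Both overlapped between the groups: the log2 difference of FSH and FBS minus untreated was -1.24 for Psmb9 over Psmb6, where the SD was 0.72 after FSH and FBS and 0.78 untreated (n = 2 each), and -0.34 for Psmb10 over Psmb7, with SDs of 0.66 and 0.76.

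The third pair could be read only through a relabelled place. On chromosome 14, minus strand, the files listed a first exon at 54617794 to 54617995 and a last exon at 54614120 to 54614481 (build not named in the files) under the gene ID of Mir686, at the position that the RefSeq table gives to Psmb5. This match was made after the values were seen. The events stood at 135, 123 and 279 FPKM with FSH and FBS against 77.5, 73.4 and 88.8 untreated, without overlap, and the row of that ID had a log2 fold change of 1.20 (SE 0.47, limma adjusted p 0.26). Psmb8 over this locus was 2.70, 3.10 and 2.82% after FSH and FBS and 8.32, 6.86 and 10.4% untreated, without overlap, a log2 difference of -1.63 with SDs of 0.027 and 0.32 (n = 2 each). Likewise, a first exon on chromosome 1 at 86064387 to 86064805, plus strand, where RefSeq places the start of Psmd1, carried the gene ID of Armc9. It stood at 28.3, 30.04 and 18.1 FPKM against 18.4, 17.1 and 10.4, with overlap.

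**Figure D4:**
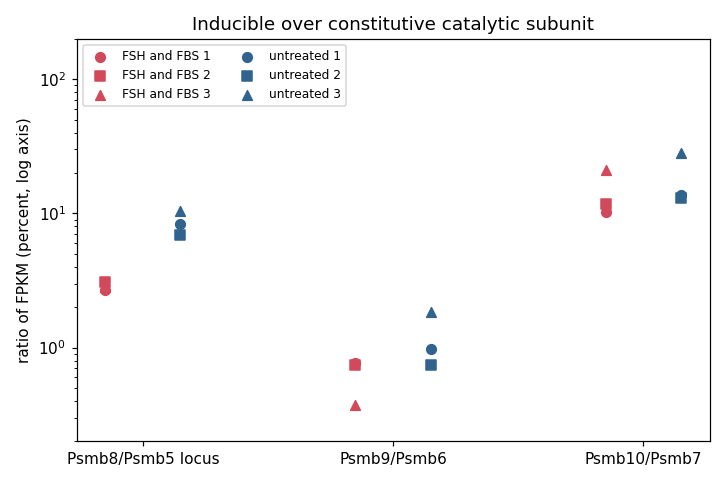
FPKM of each inducible catalytic subunit as a percent of its constitutive counterpart (log axis), 1 point per library, red for FSH and FBS and blue for untreated. For Psmb8 over the Psmb5 locus the red points lie between 2.70 and 3.10% and the blue ones between 6.86 and 10.4%; the other pairs overlap.

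The promoters of the constitutive catalytic genes Psmb5 and Psmb6 are shown because both hold a match to the core of the antioxidant response element, which is bound by NRF1 and its relatives. Each is the RefSeq sequence (GRCm38.p6) of the 250 bases before the annotated start, 5′ to 3′ on the gene's strand, with capitals marking that match (TGACNNNGC, searched on both strands). Psmb5 lies at chr14:54617996-54618245 (minus strand) and Psmb6 at chr11:70525107-70525356 (plus).
Psmb5: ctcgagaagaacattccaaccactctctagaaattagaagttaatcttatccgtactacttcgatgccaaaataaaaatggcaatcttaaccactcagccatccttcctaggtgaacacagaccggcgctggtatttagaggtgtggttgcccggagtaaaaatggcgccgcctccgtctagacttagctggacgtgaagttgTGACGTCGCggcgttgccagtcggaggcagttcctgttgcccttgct
Psmb6: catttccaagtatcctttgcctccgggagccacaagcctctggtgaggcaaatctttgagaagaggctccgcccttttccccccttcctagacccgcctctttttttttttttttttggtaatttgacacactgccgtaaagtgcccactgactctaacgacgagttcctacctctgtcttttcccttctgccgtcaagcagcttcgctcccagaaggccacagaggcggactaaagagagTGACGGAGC
A match is a description of letters and not a binding site. The windows of Psmb8 and Psmb9 are not shown as promoters, because both lie wholly inside the first exon that the files list for these genes.

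A promoter window was found for 33 of 40 members, in 36 windows. Of these, 15 reached into the main first exon listed in the files and 4 lay wholly inside it (Psmb8, Psmb9, Psmd12 and Psmd13). TGACNNNGC occurred in 4 of the 36 (11.1%; Psmb6, Psmc6, Psmd9 and Psmd12) and in 10.2% of all 32851 windows of the same length. GAAANNGAAA, an interferon regulatory factor element, occurred in 3 (8.33%; Psmb3, Psmd4 and Psmd9) and in 2.98% of all windows, and TTCNNNGAA, a gamma-activated site bound by STAT factors, in 1 (2.78%; Psmb8) and in 7.02% of all.

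The PA28 genes Psme1 and Psme2 had log2 fold changes above 0, as had Psmb10, whereas Psmb8 and Psmb9 were below 0. Psme2 stood at 18.4, 39.1 and 40.3 FPKM with FSH and FBS against 17.9, 14.8 and 18.2 untreated, without overlap, with a log2 fold change of 0.94 (SE 0.35, 95% interval 0.13 to 1.76, limma adjusted p 0.25). FSH and FBS libraries 1 and 2 differed by more than 2-fold, and library 1 lay just above the highest untreated value. Psme1 stood at 56.6, 62.5 and 112 FPKM against 41.1, 57.4 and 58.0, with overlap, at 0.60 (SE 0.42). Psme3, the nuclear PA28 gamma, stood at 36.9, 34.7 and 28.93 FPKM against 28.87, 25.8 and 21.0 and narrowly did not overlap (0.41, SE 0.35). Psme4, the activator PA200, had the largest log2 fold change of all members, 1.13 (SE 0.61, limma adjusted p 0.40), at 12.7, 16.1 and 11.8 FPKM against 18.1, 5.30 and 2.23. The value was 0.15 without untreated library 3 and 0.28 without library 3 of both groups. Its highest library was untreated library 1, far above its near-repeat untreated library 2.

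With the replicate number as a block on the averaged samples, 2 members were called higher, Psme4 (limma adjusted p 0.042) and Psme2 (0.049), in a fit that called 11.5% of all genes higher. Over the 17 alternatives of each the limma adjusted p ran from 0.042 to 0.97 for Psme4 and from 0.049 to 0.64 for Psme2. With the replicate block on 6 separate libraries, the 2 called were Psmd3 and Psmd7, in a fit that called 16.8% of all genes higher.

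Intron retention was read where both the retained and the spliced form were listed in all 6 libraries, for 7 introns of 6 members. The retained share is the FPKM of the retained form over the sum of both. In 4 of the 7 introns all FSH and FBS shares lay below all untreated shares, where 19.3% of 600 introns of all genes did so, and in 0 they lay above (1.33%). The Psmc5 intron event on chromosome 11 at 106262502 to 106262581 was retained in 4.31, 4.45 and 4.37% after FSH and FBS and in 9.50, 13.7 and 14.1% untreated. The Psmd3 event on chromosome 11 at 98690653 to 98690916 was at 2.56, 3.75 and 0.276% against 6.50, 3.998 and 17.0%. The other 2 were Psmd2, at 0.207, 0.216 and 0.0849% against 0.356, 0.260 and 0.385%, and an intron of Psme1, at 0.307, 0.183 and 0.0711% against 1.82, 0.422 and 0.375%. The introns of Psma3 and Psmc4 and another of Psme1 overlapped, with Psma3 at 6.07% in untreated library 3 and at most 0.0368% in the other 5. Shares also differed between near-repeat libraries: Psmc4 stood at 0.00176 and 13.65% in FSH and FBS libraries 1 and 2. The overlapping Psme1 intron stood at 6.71 and 18.42% in untreated libraries 1 and 2.

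More than 1 first exon was listed for at least 7 members. Psme1 was listed with 3 of them in every library, the most upstream taking 74.0, 88.4 and 68.0% of first-exon FPKM with FSH and FBS against 73.8, 74.0 and 80.2% untreated. That most upstream exon did not overlap the position that RefSeq gives to Psme1. Psma4 was listed with 43.6% on its most upstream first exon in FSH and FBS library 2 and 99.8 to 100% in the others, although FSH and FBS libraries 1 and 2 had nearly the same gene value. Psmc2 had 67.4 and 32.5% of its first-exon FPKM in FSH and FBS library 1 on exons that no other library listed. For Psmd4 and Psmd12, untreated library 2 listed a first exon with other bounds than the remaining 5 libraries. Psmb7 had a first exon listed only in untreated libraries 1 and 2, at a different position in each, and Psmd13 kept 87.9 to 97.7% on its main one.

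Of the pathway lists, 0 of 47 tested genes in the 7 lists were called in either direction by limma, and 7 were higher and 0 lower at an unadjusted p under 0.05, against 12.15% and 4.312% of all genes. With 6 separate libraries 8 were called higher (10.8% of all genes) and Gbp2 lower (3.88%): Calr, Pdia3, Usp14 and, of the NRF1 list, Nfe2l1, Nploc4, Sel1l, Syvn1 and Vcp. With the replicate block on the averaged samples 5 were called higher (11.5% of all genes): Ecpas, Nfe2l1, Sel1l, Stat2 and Usp14. The NRF1 list, NRF1 and proteins that extract and activate it, holds 8 genes, of which Ddi2 was listed in no library. The 7 tested all had log2 fold changes above 0, with a median of 0.79 that was 0.78 without FSH and FBS library 3. Nfe2l1 itself stood at 97.3, 94.8 and 82.4 FPKM with FSH and FBS against 42.5, 41.2 and 34.0 untreated, far from overlap, with a log2 fold change of 1.22 (SE 0.35, limma adjusted p 0.14, and 0.0064 to 0.66 over 17 alternatives, the highest without untreated library 3). Sel1l and Syvn1, which form the ubiquitin ligase of the endoplasmic reticulum that acts on NRF1, had 1.11 (SE 0.44) and 0.84 (SE 0.35). Sel1l stood at 32.4, 35.5 and 15.8 FPKM against 11.4, 12.7 and 8.63.

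The shuttle factors and proteasome-bound enzymes had a median of 0.61 over 11 tested genes, 10 of them above 0. Ecpas, Usp14 and Uchl5 had the smallest p values in that list. The deubiquitinase Usp14 stood at 35.4, 35.3 and 34.6 FPKM against 20.6, 20.3 and 14.95 (log2 fold change 0.96, SE 0.35, limma adjusted p 0.23). Ecpas, a scaffold that links the core and regulatory particle, had 1.12 (SE 0.44) and Uchl5 0.90 (SE 0.38). The 7 assembly chaperones and inhibitor genes outside the symbol pattern were all above 0 with a median of 0.38, led by Psmg2 at 0.86 (SE 0.43), and the regulatory subunits Adrm1 and Sem1 had 0.61 and 0.43. Without FSH and FBS library 3 the median was 0.54 for the shuttle list, 0.11 for the assembly list and -0.16 for Adrm1 and Sem1.

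Of the ubiquitin genes, 2 of 5 tested were above 0, with a median of -0.18. Ubb stood at 224, 271 and 445 FPKM with FSH and FBS against 380, 408 and 689 untreated, with overlap, a log2 fold change of -0.65 (SE 0.54), and the activating enzyme Uba1 had 0.64 (SE 0.38). The MHC class I list had a median of 0.39, with 8 of 10 tested genes above 0, led by Calr, Pdia3 and H2-D1 at 0.87, 0.81 and 0.76. The peptide transporter gene Tap1, which neighbours Psmb9, stood at 3.85, 4.15 and 1.43 FPKM against 3.55, 2.57 and 2.74. The interferon-induced regulators had a median of -0.03 over 5 tested genes of 10: Stat2 had 1.21 (SE 0.42), Gbp2 -0.79 (SE 0.36) and Irf1 -0.63 (SE 0.40).

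**Figure D5:**
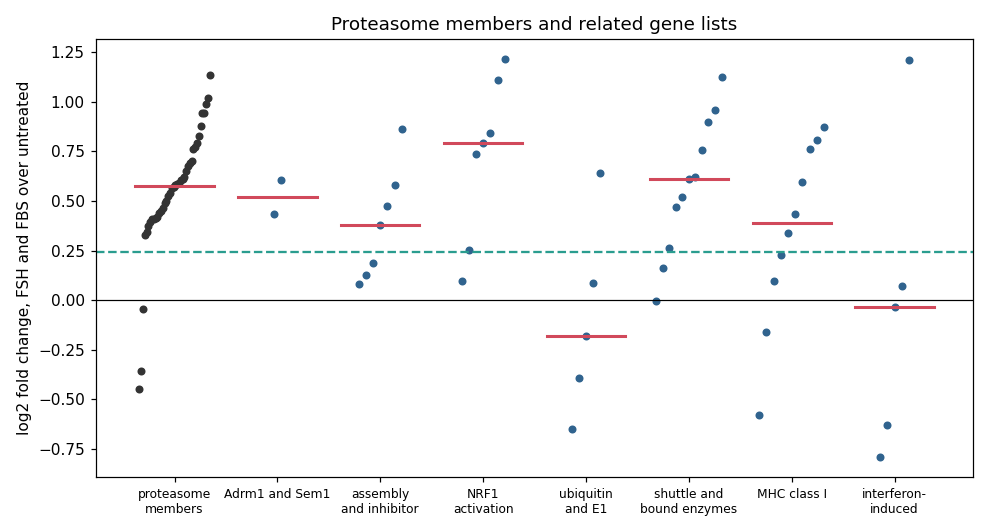
Log2 fold change of each tested gene (points) for the 40 members and for 7 related gene lists, with the list's median in red, the median of all genes tested as a dashed line and 0 as a solid line. The NRF1 list has the highest median, 0.79, and the ubiquitin list the lowest, -0.18.

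Other cell types' markers were also read. Leukocyte markers, cells in which immunoproteasome subunits are constitutive, summed to 4.17, 2.96 and 7.68 FPKM with FSH and FBS against 10.8, 9.11 and 12.9 untreated, over 9 of 15 genes listed, and 0 of 3 tested were called. The 3 tested, Lyz2, Tyrobp and Fcer1g, all had log2 fold changes below 0 (-0.997, -0.81 and -0.73). Ptprc, the leukocytes' defining marker, was listed only in FSH and FBS library 1, at 0.00504 FPKM. Theca and stroma markers summed to 16.5, 17.0 and 17.5 FPKM against 76.5, 76.1 and 61.4, nearly all from Acta2, which was called lower. Endothelial markers summed to 3.38, 2.82 and 2.70 FPKM against 0.0224, 0.515 and 0.984, over 4 of 10 genes listed, and erythroid markers to at most 1.93 FPKM in any library. The part of these cells, of the oocyte signal and of FSH and FBS library 3's higher total in the members' values was not tested.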

How the data were processed

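Messenger RNA of mouse cumulus cells was analysed in 6 libraries, 3 given FSH and FBS and 3 untreated; the small-RNA samples were not analysed here. The authors deposited 1 table per library which, per the file headers, holds transcript events (first exons, last exons, retained introns and others), their positions and an FPKM value each. The submitters' processing notes name HISAT2 2.0.1 for alignment; assembler, annotation and build are not given in the sources used here. Since no event is listed at 0, a missing event stayed missing. Depth is unknown, so no counting interval is given.

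First-exon and last-exon FPKM were each summed per gene on its main strand, and the larger sum was its value. Symbols matched 13281 of 13318 gene IDs. Libraries 1 and 2 of a group were nearly identical and were averaged (n = 2 per group). The labels name no separate cultures or animals: the spread behind each p-value is that between these samples and may be technical. Groups were compared with limma 3.58.1 (R 4.3.3, two-sided, trend option) on log2(FPKM + 1), which understates the change of low genes. The 9022 genes tested were those found in every library at a mean of 1 FPKM or more; p-values were adjusted over them by Benjamini-Hochberg and called at 0.05. The deviations of same-numbered libraries from their group means correlated over genes (r = 0.319, 0.310 and 0.508; 0.512 after averaging), so a fit with the replicate number as a block is given where it changes a call. As libraries 1 and 2 were alike, this correlation does not separate number 1 from number 2, and the labels do not say what the numbers share. Named genes were all symbols of the pattern and, in each related list, genes that passed and up to 3 with the smallest p, 1 of which is not reported here; Tap1 and the loci listed under Mir686 and Armc9 were chosen after their values were seen. The members and lists were chosen with earlier results of these data known. Alternatives covered the pseudocount, filters, exon sums, scaling, the block and each library left out. Promoters came from a RefSeq table (GRCm38.p6).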

Additional observations from a re-analysis of the deposited data

Results flagged for a closer look

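The events at the place of Psmb5 are listed under the gene ID of Mir686 and so fall outside the symbol pattern. They averaged 204 FPKM after FSH and FBS (SD 106, n = 2) and 82.1 FPKM untreated (SD 9.44, n = 2), with every FSH and FBS library above every untreated one, where 29.4% of all genes did so. FSH and FBS library 3 stood at 279 FPKM against 135 and 123 in libraries 1 and 2. The row of that ID was not called (limma adjusted p 0.26). The lowest FSH and FBS value was 123 FPKM and the highest untreated value 88.8 FPKM. Why the events carry that ID was not tested.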

How the results depend on the processing

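No alternative called a member lower, and none called a member higher except those that changed how replicates entered the fit. These called 1 member with 6 separate libraries, where 10.8% of all genes were called higher. They called 2 with the replicate block on the averaged samples (11.5% of all genes) and 2 with the replicate block on 6 libraries (16.8%). The block changed no other call of a member. Leaving out each library in turn gave 0 members called, 33 to 39 members above 0, 18 to 37 above the median of all genes (18 without FSH and FBS library 3), and medians of 0.22 to 0.61 for all members, 0.19 to 0.66 for the core, 0.39 to 0.67 for the regulatory particle and -0.34 to 0.72 for the immunoproteasome. Quantile normalization lowered the medians to 0.15 for all members, 0.10 for the core and 0.19 for the regulatory particle, with the median of all genes at 0.0042. Scaling to equal sums gave 13 and scaling by the median of ratios 8 members with all FSH and FBS libraries above, in place of 20, where 17.2% and 18.6% of all genes were. The immunoproteasome median was -0.36 from last-exon sums alone, a setting that tested 33 members and left out Psmb10. Psmb8 (-0.36) and Psmb9 (-0.45) kept their lead values there.

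Of 750 values of single members under 19 alternatives, 15 changed sign. Under quantile normalization these were Psma1 (-0.061), Psma6 (-0.026), Psmb1 (-0.089) and Psmd6 (-0.039). Over the libraries left out, Psmb1 ranged from -0.00072 to 0.38, Psmb4 from -0.30 to 0.92, Psmb6 from -0.13 to 0.78 and Psmb10 from -0.34 to 0.90, each lowest without FSH and FBS library 3. Psmb9 ranged from -0.55 to 0.047 and Psmd8 from -0.34 to 0.065, both highest without untreated library 3. Without library 3 of both groups, an alternative chosen after seeing the data that leaves no test, Psmb1 (-0.023), Psmb4 (-0.051), Psmc3 (-0.095), Psmc4 (-0.125) and Psmd10 (-0.078) changed sign, whose highest values without a single library were 0.38, 0.92, 0.66, 0.95 and 0.45. The cause was not tested. Scaling moved the split of calls over all genes as well: 71.03% of calls were higher on the deposited scale, and 56.73%, 54.44% and 56.52% with equal sums, the median of ratios and quantile normalization. Over all genes the number called higher ranged from 42 to 1516 over the alternatives and was 152 in the lead fit, and the number called lower ranged from 21 to 584 and was 62. Depth could not be used to judge single values, since the files give no counts.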
